A study of Rattus norvegicus with 16 samples.

Results

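The 8 genes described here are Ppara, which encodes the nuclear receptor PPAR alpha, and 7 genes of omega and peroxisomal fatty acid oxidation: Cyp4a1, Cyp4a2, Cyp4a3, Cyp4a8, Ehhadh, Acot5 and Pex11a. Their probes were taken by name, as those whose gene name in the scanner files equals one of these symbols. The 8 genes were chosen with earlier results of these data known, so counts of them beside all genes are descriptions and not tests. All 8 had a probe, 13 probes in all of 45598 on the array, and all 8 passed the filter on dim probes, among 16026 genes tested.

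The genes were read in total RNA of kidney cortex from male Jcl:SD (Sprague-Dawley) rats on 16 single-colour Agilent arrays. The 6 groups were BRCA1+/- rats given Fe-NTA for 1 week (3 arrays), BRCA1+/- rats given Fe-NTA for 3 weeks (3 arrays), untreated BRCA1+/- rats (2 arrays), wild-type rats given Fe-NTA for 1 week (3 arrays), wild-type rats given Fe-NTA for 3 weeks (3 arrays) and untreated wild-type rats (2 arrays). Fe-NTA, ferric nitrilotriacetate, delivers chelated iron that injures the proximal tubule, and BRCA1+/- rats are heterozygous at BRCA1, a gene of DNA double-strand break repair. Dosing was intraperitoneal and began at 4 weeks of age, with 2 injections of 5 mg iron/kg and 3 of 7 mg iron/kg in the first week and, in the 3-week groups, 5 injections of 10 mg iron/kg in each of the next 2 weeks. The cortex was collected 48 h later than the final injection. The labels give no age or vehicle for the untreated rats, so age and treatment cannot be told apart, and the 3-week rats were also older and had received more iron than the 1-week rats. The labels do not say that each array is a separate rat, so the p-values measure the spread between these arrays, which may in part be technical.

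PPAR alpha is a receptor for fatty acids and their derivatives that binds DNA as a heterodimer with a retinoid X receptor and switches on genes of fatty acid use. In the kidney it is most abundant in the proximal tubule, which burns fatty acids for most of its energy. Enzymes of the Cyp4a family, cytochrome P450 proteins of the endoplasmic reticulum, add a hydroxyl group to the far (omega) end of fatty acids, arachidonic acid included. The dicarboxylic acids that follow are shortened in peroxisomes, where the bifunctional enzyme encoded by Ehhadh carries out steps of beta oxidation. In rodents, PPAR alpha agonists raise Cyp4a and Ehhadh transcripts strongly and increase the number of peroxisomes, for which Pex11a is one of the division factors.

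Upstream sequence of Cyp4a2 and Cyp4a3 is shown because both were lower in all 4 comparisons with untreated rats. Cyp4a1 and Cyp4a8 passed in none of the 4 on the probes used, but a dimmer Cyp4a8 probe fell in wild-type kidneys after 1 week. Each line holds the 250 bases before the annotated transcription start (RefSeq, GRCr8, chromosome 5, minus strand, chr5:134170909-134171158 for Cyp4a2 and chr5:134352237-134352486 for Cyp4a3). Capitals mark AGGTCA, the half-site letters to which nuclear receptors such as PPAR alpha bind.
Cyp4a2: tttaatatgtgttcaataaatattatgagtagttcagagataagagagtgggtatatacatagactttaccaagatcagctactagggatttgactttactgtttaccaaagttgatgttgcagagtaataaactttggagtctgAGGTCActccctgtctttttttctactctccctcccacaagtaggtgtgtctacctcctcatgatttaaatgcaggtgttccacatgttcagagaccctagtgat
Cyp4a3: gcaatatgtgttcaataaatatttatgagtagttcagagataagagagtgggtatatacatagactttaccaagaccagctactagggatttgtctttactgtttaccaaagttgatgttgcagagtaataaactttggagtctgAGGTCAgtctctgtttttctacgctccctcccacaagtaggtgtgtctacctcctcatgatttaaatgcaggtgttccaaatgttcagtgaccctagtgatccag
In both windows AGGTCA stood 99 bases before the start, and the windows were identical at 236 of 245 aligned bases (96.3%). Against the Cyp4a8 window the Cyp4a2 window was identical at 154 of 218 aligned bases (70.6%). Of the 7 members with a promoter sequence (none was at hand for Cyp4a1), Cyp4a2, Cyp4a3 and Acot5 held AGGTCA on either strand, in Acot5 11 bases before the start, against 14.1% of 33469 rat promoter windows of the same length. A direct repeat of AGGNCA with 1 base between the copies was in 0 of the 7 windows and in 0.368% of all windows. A match is a description of the letters and not a binding site.

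The probes also differ in what they can resolve, and the 4 Cyp4a3 and Cyp4a8 probes whose readings are set against each other below are 60-base sequences that start at base 867 (A_44_P1155497) and 1476 (A_44_P1086350) of the Cyp4a3 transcript and at base 453 (A_44_P1141536) and 910 (A_44_P1105952) of the Cyp4a8 transcript.
Cyp4a3 A_44_P1155497: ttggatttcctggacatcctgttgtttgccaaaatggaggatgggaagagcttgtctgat
Cyp4a3 A_44_P1086350: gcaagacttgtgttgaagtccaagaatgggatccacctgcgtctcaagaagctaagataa
Cyp4a8 A_44_P1141536: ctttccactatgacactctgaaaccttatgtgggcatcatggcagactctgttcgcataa
Cyp4a8 A_44_P1105952: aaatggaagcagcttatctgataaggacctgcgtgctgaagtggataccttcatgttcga
The second Cyp4a3 probe is annotated in the files to both Cyp4a3 and Cyp4a2. The Cyp4a8 probe A_44_P1141536 is listed there with another transcript record as well. The RefSeq table lists 8 Cyp4a loci in the rat, 5 protein-coding and 3 pseudogenes, so signal from near-identical copies cannot be told apart on this array. The brightest Cyp4a8 probe, A_64_P040994 (chromosome 5, 135546881 to 135546940 in the files), lies 482 bases from the Cyp4a2 probe A_64_P019361 (135547423 to 135547482), and the other Cyp4a8 probes lie 4930 and 27745 bases beyond that probe on its other side. The file headers name assembly rn4 while the probe annotation also holds later identifiers, so the build of these coordinates is not settled. The remaining probes used are A_44_P1107743 for Ppara (chromosome 7, 123811572 to 123811631), A_64_P040870 for Cyp4a1 (chromosome 5, 135915634 to 135915693), A_43_P13230 for Ehhadh (chromosome 11, 81506762 to 81506821), A_64_P103936 for Acot5 (chromosome 6, 108122671 to 108122730) and A_64_P027868 for Pex11a (chromosome 1, 135513885 to 135513944).

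Values are on a log2 scale on which 0 is the signal at the 75th percentile of an array's probes. Between 32.7% and 60.4% of probes were well above background per array, the 75th percentile of raw signal lay between 20.1 and 78.5 units, and no spot was saturated. Arrays of a group correlated at 0.905 to 0.981, and 1 array stood apart, replicate 3 of the wild-type 1-week group, which supplied the lowest value. On that array the Cyp4a1 spot was flagged as an outlier, so Cyp4a1 has 2 values in that group. The brighter Brca1 probe averaged -0.64 in BRCA1+/- rats after 1 week, -0.88 after 3 weeks and -1.74 untreated, against 0.11, -1.35 and -3.01 in the wild-type groups at the same stages, and was well above background on 0 of the 2 untreated wild-type arrays, so it does not separate the genotypes.

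Most of the 8 genes were lower after Fe-NTA in wild-type kidneys at both times and in BRCA1+/- kidneys at 3 weeks, and none rose. After 1 week in BRCA1+/- kidneys 3 of the 8 (Cyp4a2, Cyp4a3 and Acot5) were lower at an adjusted p under 0.05, where 3.19% of all 16026 genes were lower and 7.44% changed in either direction. After 1 week in wild-type kidneys 6 of the 8 were lower (Ppara, Cyp4a2, Cyp4a3, Ehhadh, Acot5 and Pex11a), where 14.2% of all genes were lower and 27.1% changed. After 3 weeks the same 5 genes (Ppara, Cyp4a2, Cyp4a3, Ehhadh and Acot5) were lower in both genotypes. At that time 6.52% of all genes were lower and 15.8% changed in BRCA1+/- kidneys, and 5.52% were lower and 14.3% changed in wild-type kidneys. The median log2 difference of the 8 genes was -1.27 and -2.18 in BRCA1+/- kidneys after 1 and 3 weeks and -4.07 and -2.04 in wild-type kidneys, beside medians over all genes of -0.035, 0.0127, -0.0211 and -0.0241 in the same order. The medians include measured values of Acot5, and of Ppara in wild-type kidneys after 1 week, that were not well above background. The size of the wild-type 1-week median is therefore uncertain. Cyp4a1 and Cyp4a8 passed the test in none of these 4 comparisons on the probes used. Acot5 is counted in all 4, but it passed the filter on dim probes only through the untreated groups. Its calls could therefore hardly be other than lower. Without replicate 3 of the wild-type 1-week group the counts of lowered members were 3, 5, 5 and 5 in BRCA1+/- 1 week, wild-type 1 week, BRCA1+/- 3 weeks and wild-type 3 weeks, Pex11a being the gene lost (adjusted p = 0.0671). In bulk cortex, fewer cells of a type and less RNA per cell cannot be told apart.

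**Figure D1:**
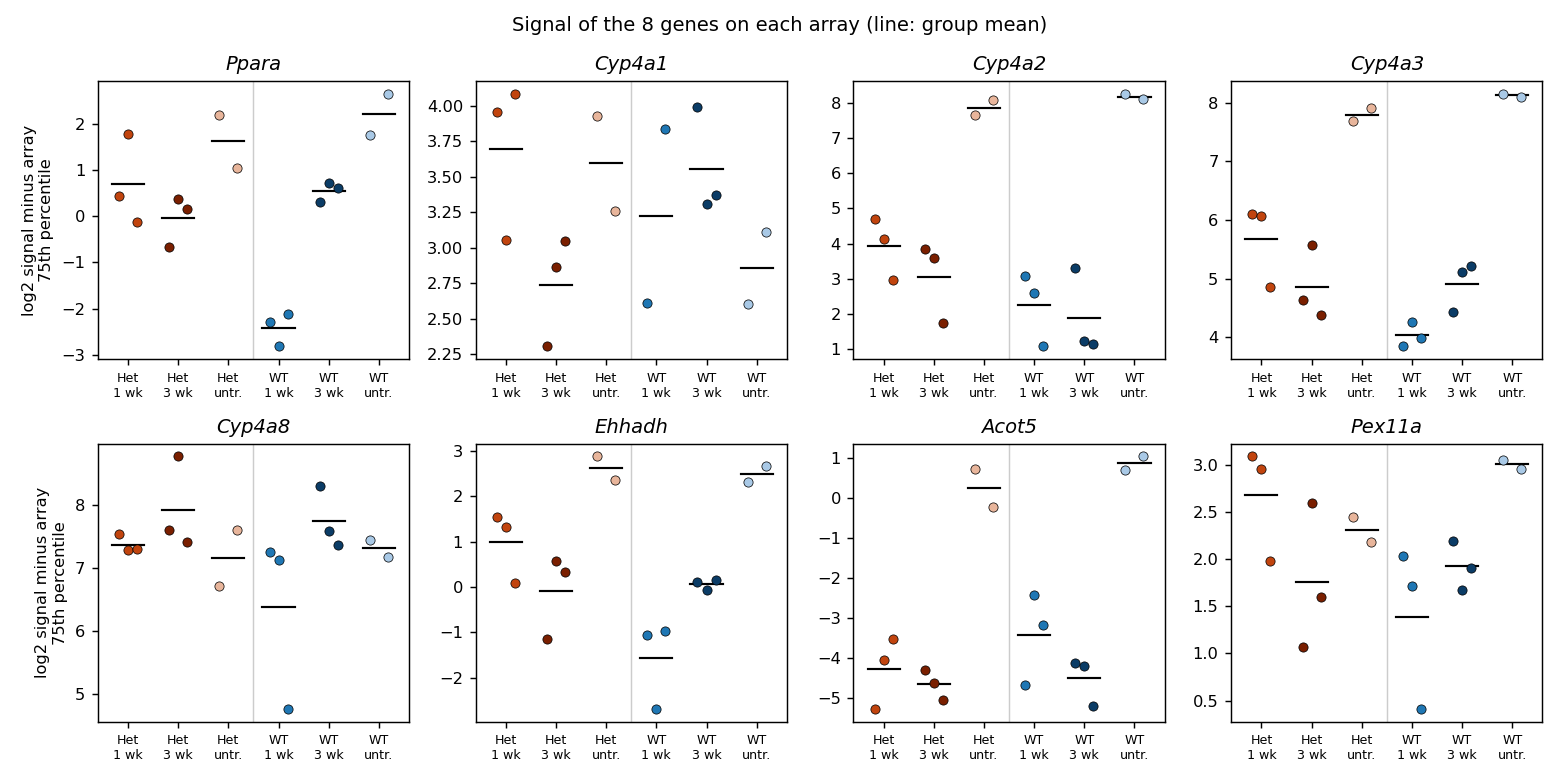
Signal of the 8 genes on each of the 16 arrays (vertical axis, log2 signal relative to each array's 75th percentile; each panel has its own scale). Points are arrays, lines are group means, Het is BRCA1+/- and untr. is untreated. Cyp4a2, Cyp4a3, Ehhadh and Acot5 are lower on all 12 treated arrays than on the 4 untreated arrays, while Cyp4a1 and Cyp4a8 overlap between most groups. Acot5 passed the filter on dim probes only through the untreated groups.

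Ppara, the receptor itself, read 0.44, 1.78 and -0.12 in BRCA1+/- kidneys after 1 week and -0.66, 0.37 and 0.15 after 3 weeks, against 2.19 and 1.04 in untreated BRCA1+/- kidneys. Wild-type kidneys had -2.30, -2.82 and -2.11 after 1 week and 0.31, 0.72 and 0.60 after 3 weeks, against 1.75 and 2.65 in untreated wild-type kidneys. The 3 wild-type 1-week arrays were thus the lowest of all 16, and the 1-week BRCA1+/- arrays overlapped their controls. On those 3 wild-type arrays the probe was not well above background, so the difference has only a bound: Ppara was at least 15.1-fold lower after 1 week than in untreated wild-type kidneys (adjusted p = 2.2e-05). After 3 weeks the log2 difference was -1.66 ± 0.51 (SE, adjusted p = 0.039) in BRCA1+/- kidneys and -1.66 ± 0.51 (adjusted p = 0.042) in wild-type kidneys. After 1 week in BRCA1+/- kidneys it was -0.92 ± 0.51 and did not pass (adjusted p = 0.309). With normexp background correction, which adds an offset of 50 signal units and so shrinks differences of dim probes, the wild-type 1-week difference was -1.53. Both 3-week calls sat close to the threshold. With normexp they were lost in BRCA1+/- kidneys (-0.97, adjusted p = 0.0743) and wild-type kidneys (-0.74, adjusted p = 0.177), and with no filter on dim probes the adjusted p was 0.119 and 0.127. The BRCA1+/- call was lost (adjusted p = 0.0504 to 0.303) without untreated BRCA1+/- replicate 1, BRCA1+/- 3-week replicate 1 or 3, or wild-type 3-week replicate 2. The wild-type call was lost (adjusted p = 0.0523 to 0.315) without either untreated wild-type array, any wild-type 3-week array or BRCA1+/- 3-week replicate 3.

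The groups ordered by mean Ppara signal as untreated wild-type (2.20 ± 0.63, SD, n = 2), untreated BRCA1+/- (1.62 ± 0.82, n = 2), BRCA1+/- 1 week (0.70 ± 0.98, n = 3), wild-type 3 weeks (0.54 ± 0.21, n = 3), BRCA1+/- 3 weeks (-0.05 ± 0.54, n = 3) and wild-type 1 week (-2.41 ± 0.37, n = 3). Each neighbour in that order overlapped the next on single arrays, except that the wild-type 1-week arrays lay below all others. The other 2 Ppara probes gave the same lowest group, A_42_P789490 with a mean of -2.99 and A_64_P051691 with -3.80 in wild-type kidneys after 1 week. A_64_P051691 was not well above background in that group either, and its bound against untreated wild-type kidneys was at least 2.62-fold. A_42_P789490 was well above background on only 1 of the 3 arrays of that group. With each probe tested on its own by limma, all 3 were lower after 1 week in wild-type kidneys (adjusted p = 3.99e-05 for A_42_P789490 and 0.00191 for A_64_P051691). A_64_P051691 passed the filter on dim probes only through the untreated groups, so its call could hardly be other than lower. Only A_44_P1107743 passed after 3 weeks in either genotype (A_64_P051691 had an adjusted p of 0.0502 and A_42_P789490 of 0.162 in BRCA1+/- kidneys).

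**Figure D2:**
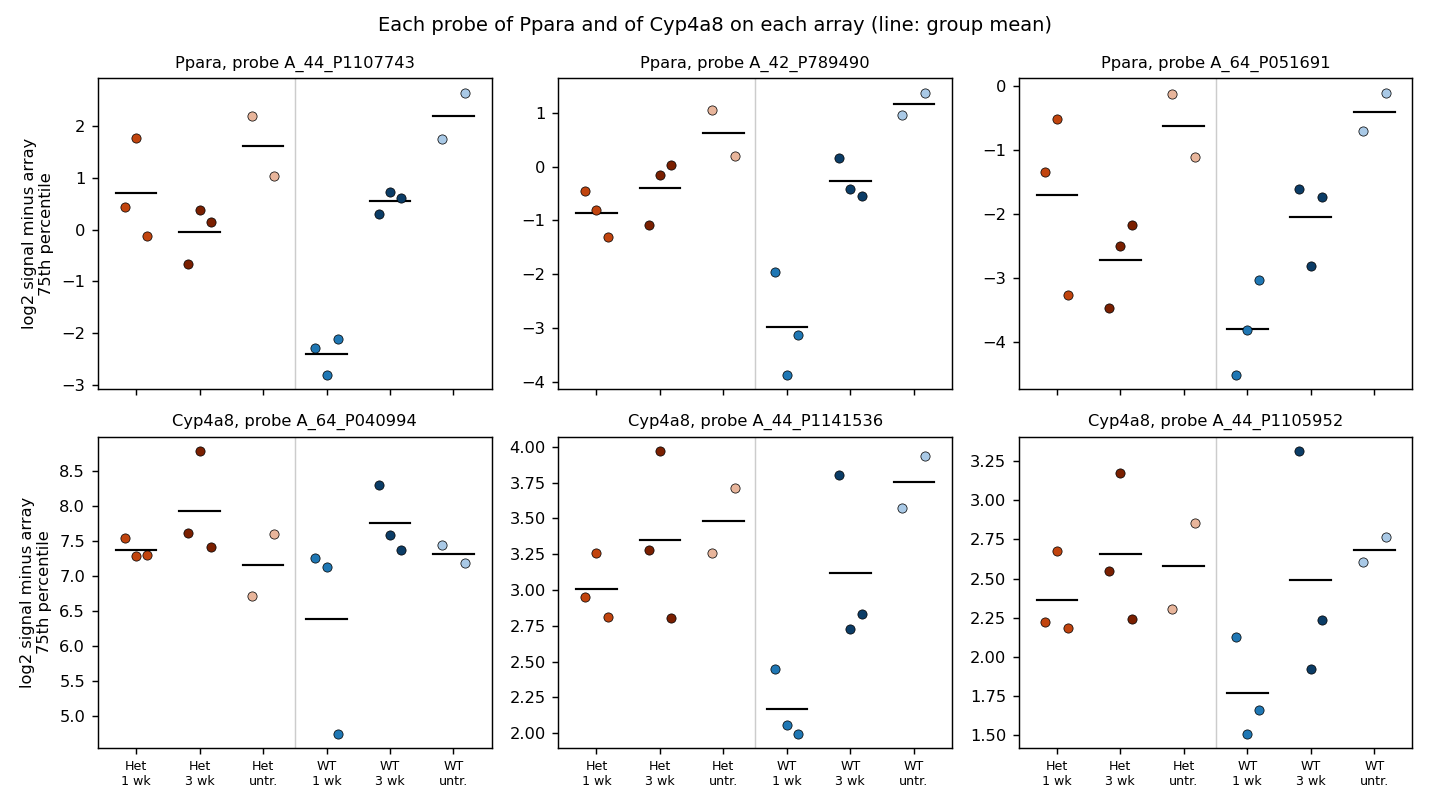
Each of the 3 Ppara probes (top row) and 3 Cyp4a8 probes (bottom row) on each array, as log2 signal relative to each array's 75th percentile, with group means as lines. The 3 wild-type 1-week arrays average lowest for every probe shown, -2.41, -2.99 and -3.80 for Ppara and 6.38, 2.17 and 1.77 for Cyp4a8 from left to right.

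Cyp4a2, an omega hydroxylase that makes a vasoactive product from arachidonic acid in the rat kidney, fell in all 4 comparisons with untreated rats. It read 4.70, 4.13 and 2.97 in BRCA1+/- kidneys after 1 week and 3.84, 3.60 and 1.75 after 3 weeks, against 7.64 and 8.07 in untreated BRCA1+/- kidneys. Wild-type kidneys had 3.08, 2.61 and 1.08 after 1 week and 3.30, 1.23 and 1.15 after 3 weeks, against 8.25 and 8.09 when untreated. Treated and untreated arrays did not overlap in either genotype, and every treated array was well above background. The log2 differences were -3.92 ± 0.75 and -4.79 ± 0.75 in BRCA1+/- kidneys after 1 and 3 weeks (adjusted p = 0.00612 and 0.000882) and -5.91 ± 0.75 and -6.28 ± 0.75 in wild-type kidneys (adjusted p = 6.74e-05 and 0.000166). On this probe, A_64_P019361, the wild-type differences amount to signals 60.3 and 77.5 times lower than in untreated rats. The probe annotated to both Cyp4a3 and Cyp4a2 gave smaller wild-type differences, -3.23 and -2.33 after 1 and 3 weeks. The BRCA1+/- 1-week call was lost without untreated BRCA1+/- replicate 2 (adjusted p = 0.0625).

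Cyp4a3, a neighbouring and closely similar omega hydroxylase, was also lower in all 4 comparisons. Its brighter probe read 6.11, 6.07 and 4.86 in BRCA1+/- kidneys after 1 week and 4.63, 5.58 and 4.38 after 3 weeks, against 7.69 and 7.91 in untreated BRCA1+/- kidneys. In wild-type kidneys it read 3.85, 4.26 and 4.00 after 1 week and 4.43, 5.11 and 5.21 after 3 weeks, against 8.16 and 8.10 when untreated. The groups did not overlap with their controls, and within wild-type kidneys the 1-week arrays lay below the 3-week arrays. The log2 differences from untreated rats were -2.12 ± 0.41 and -2.94 ± 0.41 in BRCA1+/- kidneys after 1 and 3 weeks (adjusted p = 0.00614 and 0.000364) and -4.09 ± 0.41 and -3.21 ± 0.41 in wild-type kidneys (adjusted p = 1.09e-05 and 0.000244). The probe shared with Cyp4a2, A_44_P1086350, gave -2.0 and -2.30 in BRCA1+/- kidneys and -3.23 and -2.33 in wild-type kidneys, and passed the test in all 4. On the brighter probe the BRCA1+/- 1-week call was lost without untreated BRCA1+/- replicate 2 (adjusted p = 0.0632). Over the 16 arrays Cyp4a2 and Cyp4a3 correlated at r = 0.909, as a description of arrays that share groups and slides.

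On the probes used, the other 2 family members behaved differently. Cyp4a1, the omega hydroxylase best known as a PPAR alpha target in rat liver, read 3.96, 3.06 and 4.09 in BRCA1+/- kidneys after 1 week and 2.31, 2.87 and 3.05 after 3 weeks, against 3.93 and 3.26 when untreated. In the wild-type groups it read 2.61 and 3.83 after 1 week and 3.99, 3.31 and 3.37 after 3 weeks, against 2.60 and 3.11 when untreated. Treated and untreated arrays overlapped after 1 week in both genotypes. At 3 weeks the arrays did not overlap, in opposite directions: the log2 difference was -0.85 (95% interval -1.76 to 0.06, adjusted p = 0.175) in BRCA1+/- kidneys and 0.70 (-0.21 to 1.61, adjusted p = 0.294) in wild-type kidneys, and neither passed. After 1 week it was 0.11 (-0.80 to 1.02) in BRCA1+/- kidneys and 0.37 (-0.63 to 1.36) in wild-type kidneys, intervals that do not reach the differences seen for Cyp4a2.

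Cyp4a8, the last of the Cyp4a genes described here, was bright throughout on probe A_64_P040994. It read 7.54, 7.28 and 7.30 in BRCA1+/- kidneys after 1 week and 7.60, 8.78 and 7.41 after 3 weeks, against 6.72 and 7.60 when untreated. The wild-type groups had 7.25, 7.13 and 4.75 after 1 week and 8.30, 7.59 and 7.37 after 3 weeks, against 7.44 and 7.18 when untreated. The lowest value came from the array that stood apart, replicate 3 of the wild-type 1-week group. No comparison with untreated rats passed, the log2 differences being 0.21 and 0.77 in BRCA1+/- kidneys and -0.93 and 0.44 in wild-type kidneys after 1 and 3 weeks (adjusted p = 0.883, 0.385, 0.289 and 0.677). The dimmer probes disagreed in part: on its own A_44_P1141536 fell in wild-type kidneys after 1 week (-1.59, adjusted p = 0.00532), where A_44_P1105952 gave -0.92 (adjusted p = 0.0958). Neither passed in the other 3 comparisons with untreated rats. With the mean of the Cyp4a8 probes in place of the brightest, the wild-type 1-week difference was -1.15 and passed by limma (adjusted p = 0.0482).

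Ehhadh, the peroxisomal bifunctional enzyme that hydrates and then oxidises the chain in beta oxidation, fell in 3 of the 4 comparisons. It read 1.55, 1.33 and 0.09 in BRCA1+/- kidneys after 1 week and -1.14, 0.57 and 0.34 after 3 weeks, against 2.88 and 2.35 when untreated. Wild-type arrays read -1.05, -2.69 and -0.96 after 1 week and 0.11, -0.06 and 0.16 after 3 weeks, against 2.31 and 2.68 when untreated. All 12 treated arrays were below all 4 untreated arrays, and the 3 wild-type 1-week arrays were the lowest except for 1 BRCA1+/- 3-week array. Ehhadh was well above background on 2 of the 3 wild-type 1-week arrays, so the size of that difference is uncertain. The log2 differences were -1.62 ± 0.57 (adjusted p = 0.097) and -2.69 ± 0.57 (adjusted p = 0.00632) in BRCA1+/- kidneys after 1 and 3 weeks, and -4.06 ± 0.57 (adjusted p = 0.000134) and -2.42 ± 0.57 (adjusted p = 0.0113) in wild-type kidneys. The BRCA1+/- 3-week call was lost without untreated BRCA1+/- replicate 1 (adjusted p = 0.0731) and the wild-type 3-week call without untreated wild-type replicate 2 (adjusted p = 0.107). With normexp the differences that passed were -1.74 in BRCA1+/- kidneys after 3 weeks and -1.70 and -1.22 in wild-type kidneys after 1 and 3 weeks. Ehhadh was the member most correlated with Ppara over the 16 arrays (r = 0.91), again as a description.

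Acot5, an acyl-CoA thioesterase placed in peroxisomes in the mouse, was well above background on 0 of the 12 treated arrays and on all 4 untreated arrays. It passed the filter on dim probes only through the untreated groups, so its calls could hardly be other than lower. It read -5.29, -4.07 and -3.53 in BRCA1+/- kidneys after 1 week and -4.31, -4.64 and -5.06 after 3 weeks, against 0.72 and -0.24 when untreated. Wild-type kidneys had -4.69, -2.44 and -3.19 after 1 week and -4.15, -4.21 and -5.21 after 3 weeks, against 0.69 and 1.03 when untreated. The treated and untreated arrays were far apart in both genotypes. Its differences are therefore bounds: Acot5 was at least 6.16-fold lower after 1 week and at least 6.87-fold lower after 3 weeks in BRCA1+/- kidneys (adjusted p = 0.00053 and 0.000151). In wild-type kidneys it was at least 6.29-fold lower after 1 week and at least 9.5-fold lower after 3 weeks (adjusted p = 0.000132 and 0.000105). With normexp the log2 differences were -1.08 and -1.17 in BRCA1+/- kidneys and -1.05 and -1.31 in wild-type kidneys after 1 and 3 weeks, and all 4 passed.

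Pex11a, a membrane protein that drives peroxisome elongation and division, had the smallest called difference. It read 3.09, 2.96 and 1.98 in BRCA1+/- kidneys after 1 week and 1.07, 2.59 and 1.59 after 3 weeks, against 2.44 and 2.18 when untreated. Wild-type kidneys had 2.03, 1.72 and 0.41 after 1 week and 2.20, 1.67 and 1.90 after 3 weeks, against 3.05 and 2.96 when untreated. The wild-type treated arrays were all below their controls, while the BRCA1+/- groups overlapped theirs. Only the wild-type 1-week difference passed, at -1.62 ± 0.49 (adjusted p = 0.0233), and it was -1.13 with an adjusted p of 0.0671 without replicate 3. Without untreated wild-type replicate 1 or 2 the adjusted p was 0.114 or 0.1, and with normexp the difference was -0.80 (adjusted p = 0.286).

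**Figure D3:**
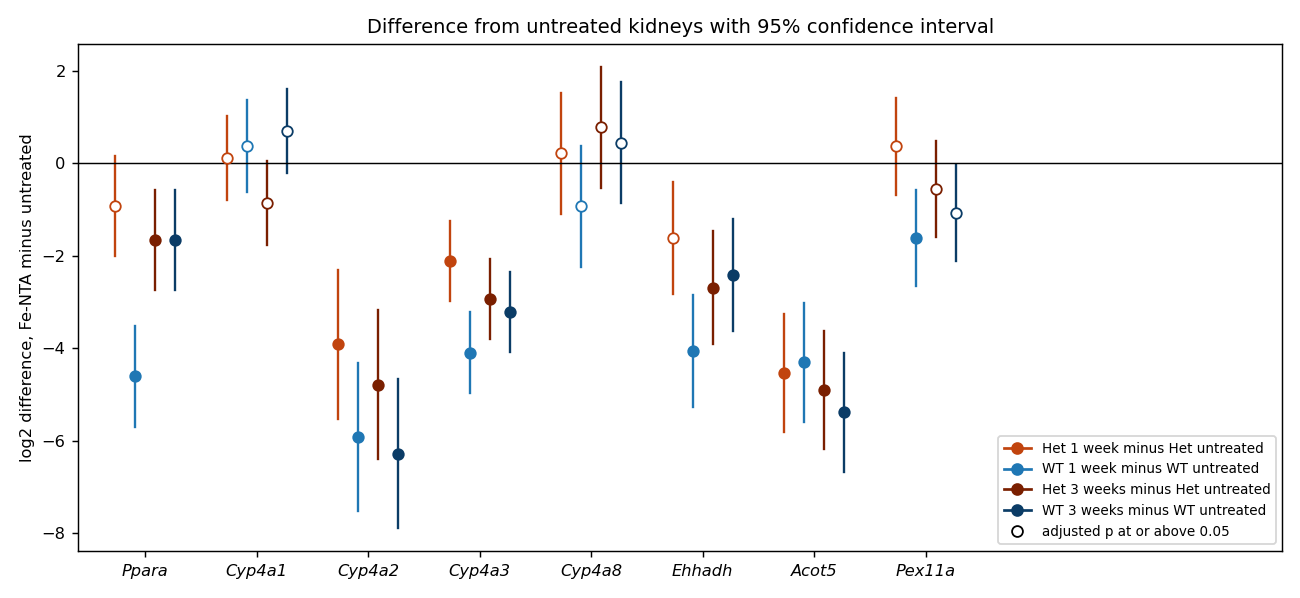
Log2 difference of each gene from the untreated rats of the same genotype (vertical axis), with the 95% confidence interval of the fit as a line; filled points passed at an adjusted p under 0.05, and Het is BRCA1+/-. Cyp4a2, Cyp4a3 and Acot5 are filled in all 4 comparisons, Cyp4a1 and Cyp4a8 in none, and Ppara is lowest after 1 week in wild-type kidneys; points for Acot5, and for Ppara after 1 week in wild-type kidneys, rest on values below background and are given as bounds in the text.

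Levels after 1 week were then compared directly between the genotypes. Ppara was at least 5.33-fold higher in BRCA1+/- than in wild-type kidneys at that time (adjusted p = 0.0174) and Ehhadh was higher by 2.56 ± 0.51 on the log2 scale (adjusted p = 0.0388), 2 of the 8 genes where 0.562% of all genes differed. Every BRCA1+/- 1-week array was above every wild-type 1-week array for both genes on the probes used. Of the other Ppara probes, each tested on its own by limma, A_42_P789490 passed (adjusted p = 0.0487). That probe was well above background on only 1 of the 3 wild-type and 2 of the 3 BRCA1+/- arrays after 1 week, so the size of its difference is uncertain. A_64_P051691 did not (adjusted p = 0.146), and its bound was only at least 1.06-fold. Cyp4a3 differed by 1.65 ± 0.36, also without overlap, and did not pass (adjusted p = 0.0565). Acot5 was not well above background in either group. The other differences were 0.48 for Cyp4a1, 1.68 for Cyp4a2, 0.99 for Cyp4a8 and 1.29 for Pex11a, and none passed. With normexp both calls were lost, at 0.91 for Ppara (adjusted p = 0.331) and 1.11 for Ehhadh (adjusted p = 0.213). Both calls rested on few arrays: without replicate 3 of the wild-type 1-week group the adjusted p was 0.0581 for Ppara and 0.0838 for Ehhadh, and without replicate 2 of the BRCA1+/- 1-week group it was 0.112 and 0.245. Without replicate 1 of that group it was 0.0502 and 0.113. The Ehhadh call was also lost without wild-type 1-week replicate 2 (0.0968) and without any single untreated array or wild-type 3-week array (0.0538 to 0.0592).

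The difference between the 2 treatment effects did not pass its own test. For Ppara the interaction at 1 week had an adjusted p of 0.276, and its size is not given because the wild-type 1-week signals were not well above background. For Ehhadh it was 2.43 ± 0.80 (adjusted p = 0.457). By limma 0 of the 8 genes and 0.0% of all genes passed this interaction (4 of the 8 and 1222 of all genes had an unadjusted p under 0.05). At 3 weeks the interaction was likewise passed by 0 of the 8 and 0.0% of all genes (1 of the 8 and 758 of all genes at an unadjusted p under 0.05). Untreated BRCA1+/- and untreated wild-type kidneys differed in 0 of the 8 genes and 0.0% of all genes (0 of the 8 and 748 of all genes at an unadjusted p under 0.05), and BRCA1+/- and wild-type kidneys after 3 weeks in 0 of the 8 and 0.0% (1 of the 8 and 931 of all genes at an unadjusted p under 0.05). With 2 untreated arrays per genotype the intervals are wide: the Ppara difference between untreated BRCA1+/- and wild-type kidneys was -0.58, with a 95% interval from -1.77 to 0.60.

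In BRCA1+/- kidneys the 3-week minus 1-week difference was -0.74 ± 0.45 (adjusted p = 0.493), and 0 of the 8 genes passed by limma (2 at an unadjusted p under 0.05), where 0.306% of all genes changed. In wild-type kidneys Ppara was higher after 3 weeks than after 1 week with a bound of at least 4.79-fold (adjusted p = 0.00204), the 1 member of 8 to pass, where 8.32% of all genes changed. The 2 time differences themselves differed by -3.69 ± 0.64 log2 units (BRCA1+/- minus wild-type, adjusted p = 0.0423), a comparison added after the values were seen, in which 1 of the 8 and 0.119% of all genes passed. That value uses wild-type 1-week signals that were not above background. Tested on their own by limma, the other 2 Ppara probes did not pass this comparison (adjusted p = 0.168 and 0.2305). With normexp the wild-type time difference was 0.78 (adjusted p = 0.165) and the difference between genotypes -1.21 (adjusted p = 0.478). For the other genes the wild-type difference was 1.64 for Ehhadh (adjusted p = 0.0609), 1.37 for Cyp4a8, 0.88 for Cyp4a3, 0.54 for Pex11a, 0.33 for Cyp4a1 and -0.36 for Cyp4a2, and Acot5 was not well above background at either time. These comparisons share the 1-week arrays with those against untreated rats.

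The arrays came from 2 slides of 8 arrays, each with all 6 groups. With slide as a block all 19 calls of the 6 genes in the comparisons with untreated rats remained past the threshold. Across those comparisons the log2 differences with the block, within slide 1 and within slide 2 ran from -5.33 to -4.25, -6.00 to -4.98 and -5.90 to -3.13 for Acot5. For Cyp4a2 they ran from -6.26 to -3.94, -6.01 to -2.93 and -7.11 to -4.35, and for Cyp4a3 from -4.06 to -2.15, -4.18 to -1.58 and -3.89 to -2.44. Those of Ehhadh ran from -4.17 to -2.53, -3.68 to -2.54 and -4.99 to -2.15, and those of Ppara from -4.67 to -1.60, -4.85 to -2.04 and -4.57 to -1.15. The single Pex11a call was -1.62, -1.73 and -1.33. Every value was negative, but with 1 or 2 arrays per group and slide 13 of the calls passed within slide 1 and 4 within slide 2. The genotype difference after 1 week was 3.23, 2.64 and 3.64 for Ppara and 2.78, 2.55 and 3.40 for Ehhadh with the block and within slides 1 and 2, passing with the block only.

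The wider peroxisomal beta oxidation list (30 genes of transport, oxidation and thioesterases, 28 of them tested) held lowered genes in all 4 comparisons. Of these, 9 fell in BRCA1+/- kidneys and 23 in wild-type kidneys after 1 week, and 11 and 12 after 3 weeks, with none higher, where 3.19%, 14.2%, 6.52% and 5.52% of all genes were lower; the list medians were -0.81, -1.97, -0.85 and -0.75. Hao2, a peroxisomal hydroxy acid oxidase, fell in all 4, with -1.75 and -1.59 in BRCA1+/- kidneys and -3.50 and -1.82 in wild-type kidneys. Amacr, the racemase needed for branched-chain fatty acids, fell in all 4, with -1.5 and -1.84 in BRCA1+/- kidneys and -3.03 and -1.93 in wild-type kidneys. Decr2, the peroxisomal dienoyl-CoA reductase, was not above background after 1 week and was at least 6.06-fold lower in BRCA1+/- and at least 4.82-fold lower in wild-type kidneys. In wild-type kidneys 16 of the 28 genes were higher after 3 weeks than after 1 week, where 8.32% of all genes changed in either direction. By limma 0 of the 28 differed between BRCA1+/- and wild-type kidneys after 1 week, where 0.562% of all genes differed. At an unadjusted p under 0.05, 16 of the 28 and 2022 of all 16026 genes differed between the genotypes at that time.

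Genes of peroxisome assembly were counted in the same way. Of 14 tested among 19 peroxins and peroxisomal membrane proteins, 0 fell in BRCA1+/- kidneys by limma at either time (4 and 5 at an unadjusted p under 0.05), while 7 fell after 1 week and 1 after 3 weeks in wild-type kidneys. Over all genes 3.19% and 6.52% were lower in BRCA1+/- kidneys and 14.2% and 5.52% in wild-type kidneys. Pxmp2, a peroxisomal membrane channel, differed by -1.15 in BRCA1+/- kidneys (adjusted p = 0.106) and fell in wild-type kidneys after 1 week (-2.45 ± 0.41). Pex13, a docking protein of the import machinery, fell in wild-type kidneys after 1 and 3 weeks (-1.69 and -1.36). Pex5, the import receptor, fell by 1.47 in wild-type kidneys after 1 week. Without replicate 3 of the wild-type 1-week group the numbers lowered were 1 and 3 in BRCA1+/- kidneys and 7 and 2 in wild-type kidneys after 1 and 3 weeks.

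The list of dimer partners and coregulators of PPAR alpha also holds the related receptor Pparg. Of its 14 tested genes, 0 were lower in any of the 4 comparisons by limma (2 and 2 in BRCA1+/- kidneys and 3 and 4 in wild-type kidneys had an unadjusted p under 0.05 in either direction after 1 and 3 weeks). Over all genes 3.19% to 14.2% were lower in these comparisons. After 3 weeks 1 of the 14 rose in BRCA1+/- kidneys and 2 rose in wild-type kidneys, and after 1 week 0 rose in either. Rxra, the main dimer partner, differed by -0.42 and -0.63 in BRCA1+/- kidneys and by -0.68 and -0.08 in wild-type kidneys, and Ppargc1a, a coactivator of fatty acid oxidation genes, by 0.38 and -0.18 and by -0.31 and -0.15; none passed. Nrip1 and Ncor1, both corepressors, differed by -0.83 each in wild-type kidneys after 1 week and did not pass (adjusted p = 0.0841 and 0.101). Without wild-type 1-week replicate 3 the genes of this list lower and higher were 0 and 1 after 1 week and 0 and 3 after 3 weeks in BRCA1+/- kidneys, and 1 and 1 after 1 week and 1 and 2 after 3 weeks in wild-type kidneys.

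Other genes known as PPAR alpha targets went both ways. Among 21 tested, 2 fell and 3 rose in BRCA1+/- kidneys and 10 fell and 3 rose in wild-type kidneys after 1 week; after 3 weeks 5 fell and 3 rose in BRCA1+/- kidneys and 5 fell and 2 rose in wild-type kidneys. Of all genes, 7.44% and 27.1% changed in either direction after 1 week and 15.8% and 14.3% after 3 weeks in BRCA1+/- and wild-type kidneys. Angptl4, a secreted inhibitor of lipoprotein lipase, rose in all 4, by 4.58 ± 0.53 and 3.69 ± 0.53 in BRCA1+/- kidneys and by 5.10 ± 0.53 and 3.24 ± 0.53 in wild-type kidneys. It was well above background on only 1 of the 2 untreated wild-type arrays. Ucp2, a mitochondrial carrier, rose by 1.75 and 2.15 in BRCA1+/- kidneys and by 2.23 and 2.22 in wild-type kidneys. Acadm, the medium-chain dehydrogenase of mitochondria, differed by -0.86 in BRCA1+/- kidneys after 1 week (adjusted p = 0.104) and fell in the other 3 comparisons (-1.25 in BRCA1+/- kidneys after 3 weeks, -1.97 and -1.16 in wild-type kidneys). Me1, malic enzyme, fell in all 4, with -1.09 and -1.37 in BRCA1+/- kidneys and -1.25 and -1.73 in wild-type kidneys. Slc22a5, the carnitine transporter, was called lower in all 4 comparisons. It passed the filter on dim probes only through the untreated groups, so these calls could hardly be other than lower. Among treated arrays it was well above background on 2 of 3 in each BRCA1+/- group and on 1 of 3 in wild-type kidneys after 3 weeks. After 1 week in wild-type kidneys its signal was not well above background, and it was at least 2.43-fold lower than when untreated. Cpt1a, the gate to mitochondrial oxidation, fell by 0.76 in wild-type kidneys after 1 week (adjusted p = 0.0417) and did not pass elsewhere. Without wild-type 1-week replicate 3 the number lower in wild-type kidneys after 3 weeks was 8.

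Several ketone body genes were lower in both genotypes. Of 9 tested, 3 and 5 fell in BRCA1+/- kidneys and 6 and 4 in wild-type kidneys after 1 and 3 weeks, where 3.19% and 6.52% and 14.2% and 5.52% of all genes were lower, and none rose. Acat1, Bdh2 and Slc16a1 (a thiolase, a hydroxybutyrate dehydrogenase and a monocarboxylate carrier) passed in all 4. Bdh2 differed by -1.23 and -1.86 in BRCA1+/- kidneys and by -2.42 and -1.93 in wild-type kidneys. Slc16a1 differed by -1.56 and -2.56 in BRCA1+/- kidneys and by -1.58 and -2.35 in wild-type kidneys. Without wild-type 1-week replicate 3 the number lower in BRCA1+/- kidneys after 1 week was 6.

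Omega oxidation outside the Cyp4a family had 13 tested genes of 23. After 1 week 0 fell and 1 rose in BRCA1+/- kidneys and 6 fell and 1 rose in wild-type kidneys (8 of the 13 in BRCA1+/- kidneys had an unadjusted p under 0.05), and after 3 weeks 1 fell and 1 rose in BRCA1+/- kidneys and 1 fell in wild-type kidneys. Of all genes, 7.44% and 27.1% changed in either direction after 1 week and 15.8% and 14.3% after 3 weeks in BRCA1+/- and wild-type kidneys. Cyp4b1, a P450 enzyme that oxidises short fatty acids and xenobiotics, rose by 2.03 ± 0.44 and 1.66 ± 0.44 in BRCA1+/- kidneys after 1 and 3 weeks and by 1.94 ± 0.44 in wild-type kidneys after 1 week. Cyb5a, an electron donor to P450 enzymes, fell in BRCA1+/- kidneys after 3 weeks (-1.67) and in wild-type kidneys after 1 and 3 weeks (-1.76 and -1.57). Cyp2e1 and Cyp2c23, which also oxidise fatty acids, fell in wild-type kidneys after 1 week (-4.65 and -3.40) and passed in no other comparison with untreated rats. Cyp2e1 was well above background on only 1 of the 3 wild-type 1-week arrays, so the size of its difference is uncertain. Without wild-type 1-week replicate 3 the numbers lower were 4 and 2 in BRCA1+/- kidneys and 6 and 2 in wild-type kidneys after 1 and 3 weeks.

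**Figure D4:**
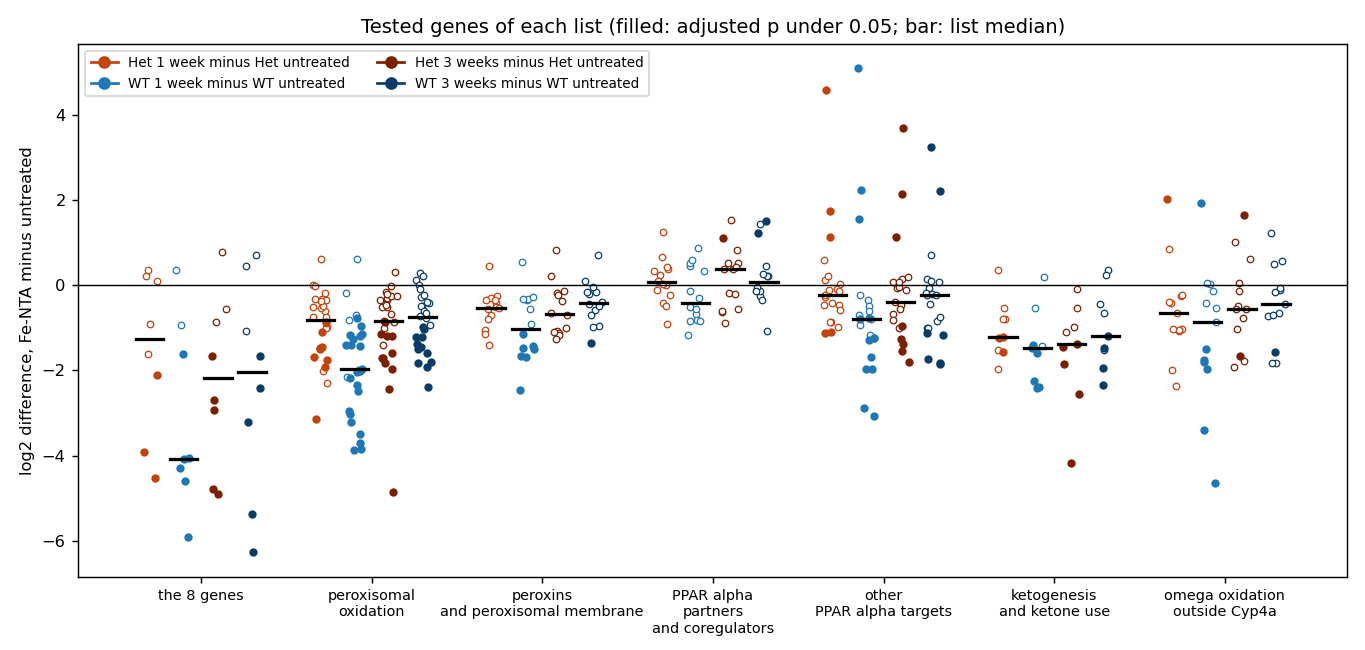
Log2 difference from untreated rats of every tested gene of the 8 members and the 6 other lists, with filled points past an adjusted p of 0.05, bars at the list medians and Het for BRCA1+/-. Peroxisomal oxidation and ketone genes lie mostly below 0 in all 4 comparisons, partners and coregulators scatter around 0, and Angptl4 is the highest point in each comparison.

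Markers of kidney cell types moved with these genes, and their part in the result was not tested. The summed linear signal of 12 proximal tubule markers ranged over 1680 to 2740 after 1 week and 1540 to 3320 after 3 weeks in BRCA1+/- kidneys, against 5250 to 7080 when untreated. In wild-type kidneys it ranged over 458 to 1150 after 1 week and 2060 to 3300 after 3 weeks, against 6860 to 7630 when untreated. Of those 12 markers 4 and 5 fell in BRCA1+/- kidneys and 11 and 5 in wild-type kidneys after 1 and 3 weeks. In wild-type kidneys after 3 weeks 1 of them rose. Over all genes 3.19% and 6.52% were lower in BRCA1+/- kidneys and 14.2% and 5.52% in wild-type kidneys. The 8 markers of the last (S3) segment summed to 137 to 217 and 272 to 396 in BRCA1+/- kidneys, against 436 to 444 untreated, and to 35.7 to 117 and 258 to 347 in wild-type kidneys, against 424 to 486 untreated; Slc27a2 stands in that list and in the peroxisomal oxidation list. Among group means, the wild-type 1-week group was the lowest for Ppara, Cyp4a3, Cyp4a8, Ehhadh and Pex11a, the wild-type 3-week group for Cyp4a2 and the BRCA1+/- 3-week group for Cyp4a1; Acot5 was not well above background in any treated group.

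Other cell types differed less or in the other direction. Thick limb and distal tubule markers summed to 278 to 697 and 440 to 1090 in treated BRCA1+/- kidneys after 1 and 3 weeks, against 509 to 1160 untreated, and to 110 to 279 and 490 to 932 in wild-type kidneys, against 374 to 619 untreated. Collecting duct markers lay between 179 and 382 on all arrays. Podocyte markers lay between 16.5 and 31.2 on treated arrays, against 28.3 to 46.3 on untreated arrays, and endothelial markers between 20.8 and 39.8, against 41.8 to 51.7. Macrophage markers (7) lay between 20.5 and 62.5 on treated arrays, against 7.98 to 10.4 on untreated arrays, and fibroblast markers (5) between 26.4 and 72.6, against 9.47 to 14.8. The 10 tubular injury markers lay between 266 and 842 on treated arrays, against 20.8 to 29.8. Adipocyte markers lay between 2.36 and 12.5 on treated arrays, against 2.26 to 3.34, with Lep and Ucp1 above background on no array. Of 5 hepatocyte markers, Alb, Apoa1, Ttr and Cyp7a1 were above background on no array, and the list summed to at most 0.901.

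The genes whose signal over the 16 arrays was most like that of Ppara, among 11403 genes with a plain symbol, were G6pc1 (r = 0.96), Galnt11 (0.959), Pc (0.959), Selenop (0.956) and Rmdn1 (0.955). Most like the mean profile of the 7 members with a value on every array were Gba3 (r = 0.979), Paqr7 (0.97), Proc (0.964), Gsta5 (0.963) and Gsta2 (0.963). These are descriptions over arrays that share groups, slides and scaling. Among the members, Cyp4a8 was the least like the others, with r from -0.212 (Acot5) to 0.513 (Pex11a).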

How the data were processed

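RNA of the 16 kidney cortex samples was labelled with Cy3, 1 array each. Per the file headers, the scanner files hold spot intensity made with Agilent Feature Extraction 10.7: a background-subtracted processed signal, mean and local background intensity, and other columns that flag control, outlier and well-above-background spots (per the file headers). The deposited table of the authors gives log2 values that differ from those used here by at most 0.00978, so its scaling matches the 75th percentile of each array; the labels name no such step.

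From the scanner files, 4259 control spots of 62976 and outlier spots were left out, spots of a probe were averaged, and the processed signal was divided by its 75th percentile on the array and put on a log2 scale. Probes took the RefSeq symbol of their accession where listed (21229 probes), otherwise the file's name. Probes were kept with at least 2 values in every group and all values of at least 1 group well above background (20459 probes), and the brightest probe stands for a gene (16026 genes).

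All groups were fitted together in limma 3.58.1 (R 4.3.3; lmFit, eBayes; 10 residual and 4.86 prior degrees of freedom), two-sided; p-values were adjusted by Benjamini-Hochberg across the 16026 genes and 0.05 was the threshold; the fit was tested on simulated data. A bound ("at least N-fold") sets the brighter group's mean against, per array, the higher of the lowest signal well above background and the probe's own. Without counts, precision is limited by the number of arrays. The members, lists and tests were chosen with earlier results of these data known. The genes named from each list are the 3 with the smallest p in wild-type kidneys after 1 week, the 1 with the smallest p per direction in each other comparison with untreated rats, and Cpt1a, Rxra and Ppargc1a; some genes that the rule names are not reported here. Genes most like Ppara or the members' mean are the 5 with the highest Pearson r each. The genotype-by-time comparison was added after values were seen. Alternatives covered background correction, scaling, the dim filter, the groups fitted, blocks, probe choice and arrays left out.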

Additional observations from a re-analysis of the deposited data

Results flagged for a closer look

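The time difference of Ppara differed between the genotypes: the 3-week minus 1-week difference was 3.69 log2 units lower in BRCA1+/- than in wild-type kidneys (-3.69 ± 0.64, limma adjusted p = 0.0423). It was singled out because the test of the difference between 2 groups' effects passed. The comparison was added after the values were seen, and the wild-type 1-week signals in it were not well above background. Tested on their own by limma, the other 2 Ppara probes did not pass it (adjusted p = 0.168 and 0.2305). Over 29 alternatives the value ran from -4.39 to -1.21 with adjusted p from 0.0157 to 1.0, and the call was lost in 23 of them.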

How the results depend on the processing

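Across 96 member results, 2650 of 2760 values under the alternatives kept direction and side of the threshold, 98 ended a call, 12 added one and 0 reversed; of the 19 calls against untreated rats, those of Cyp4a2 and Acot5 in wild-type kidneys after 1 week and BRCA1+/- kidneys after 3 weeks (4 in all) passed under every alternative run. Acot5 passed the filter on dim probes only through the untreated groups, so its calls could hardly be other than lower. The causes of the shifts below were not tested, except that settings within a slide or without an array use fewer arrays. Genes passing are given for BRCA1+/- 1 week, BRCA1+/- 3 weeks, wild-type 1 week and wild-type 3 weeks against untreated rats, where the reported counts were 1193, 2540, 4340 and 2288. With no filter on dim probes they were 450, 1071, 2654 and 973, with normexp background 439, 1561, 1698 and 823, within slide 1 126, 251, 1081 and 302, and within slide 2 28, 279, 194 and 3. With only the groups compared in the fit, BRCA1+/- 3 weeks had 3885, wild-type 1 week 1747 and wild-type 3 weeks 3703. Between 3 weeks and 1 week, BRCA1+/- kidneys (49 reported) had 12 genes with no filter, 29 with normexp, 25 with only the groups compared, 2 within slide 1, 0 within slide 2, 103 with dim values raised to the detection limit and 19 with quantile normalization, and wild-type kidneys (1333 reported) had 471, 665, 451, 131 and 0 under the first 5 of these. BRCA1+/- against wild-type kidneys after 1 week (90 reported) had 1 with no filter, 2 with normexp, 34 with slide as a block and 0 with only the groups compared or within slide 1 or 2. After 3 weeks that comparison had 1 gene with normexp, 2 within slide 1 and 1 with dim values at the limit, and the 3-week interaction had 1 under each of these. The genotype-by-time comparison (19 reported) had 0 with no filter or within slide 2, 1 with normexp, only the groups compared or within slide 1, 44 with dim values at the limit, 6 with quantile normalization or slide as a block, and 4 with the replicate block.

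Members passing against untreated rats were 1 (BRCA1+/- 1 week) and 3 (BRCA1+/- 3 weeks) within slide 1, and 0, 2, 2 and 0 within slide 2 in the order above. For BRCA1+/- against wild-type after 1 week they were 0 with no filter, normexp, only the groups compared, and within slide 1 or 2. For wild-type 3 weeks against 1 week they were 0 with normexp and within slide 2, and 2 with slide as a block. The genotype-by-time call on Ppara gave 0 with no filter, normexp, only the groups compared, slide as a block, within slide 1 or 2, dim values at the limit, the mean of probes, quantile normalization and the replicate block.

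Leaving out 1 array at a time, genes passing ran from 373 to 2309, 813 to 4722, 2346 to 5346 and 772 to 3885 against untreated rats in the order above, 15 to 219 between times in BRCA1+/- kidneys and 597 to 2007 in wild-type kidneys. Between genotypes they ran from 0 to 2 untreated, 1 to 151 after 1 week and 0 to 1 after 3 weeks, and for the interactions from 0 to 7 at 1 week, 0 to 0 at 3 weeks and 0 to 93 for time. Members ran from 1 to 3, 3 to 5, 5 to 6 and 3 to 5 against untreated rats, 1 to 3 for wild-type 3 weeks against 1 week, 0 to 3 between genotypes after 1 week and 0 to 1 for genotype by time. Replicate numbers do not pair the samples (36 same-number pairs correlated at -0.338 to 0.445, median 0.0251); with the replicate block the Ppara calls after 3 weeks were lost (adjusted p = 0.0548 in BRCA1+/- and 0.0633 in wild-type kidneys), and 945, 2591, 3915 and 2149 genes passed against untreated rats. Dim signal on treated arrays limits Ppara, Acot5, Decr2 and Slc22a5 to bounds and makes the wild-type 1-week sizes of Ehhadh and Cyp2e1 uncertain. With 2 untreated arrays per genotype the intervals are wide.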
